A study of Mus musculus with 10 samples.

Results

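Vitamin A reaches its active form, retinoic acid, through a short chain of enzymes and carrier proteins, and 9 mouse genes of that chain were followed in the testis of wild-type (WT) and Crem knock-out (KO) mice. The genes were Rdh10, Rdh11, Aldh1a1, Aldh1a2, Aldh1a3, Crabp1, Crabp2, Stra6 and Cyp26b1. Each was taken from the rows of the expression table that carry its symbol and no other, with the row of highest mean over the 10 arrays where a gene had several. All 9 were found, each by 1 such feature, among 19661 genes with a symbol. The mice were 5 WT and 5 homozygous Crem-/- males of mixed 129Pas and C57Bl/J background, 8 weeks old and untreated. All were killed when the lights came on, and total RNA of the whole testis of each animal went to 1 Affymetrix Mouse Gene 1.0 ST array. Crem encodes a cAMP-responsive transcription factor of spermatids. It is disrupted in every cell of the KO mice, whose sperm development does not pass the round spermatid. A KO testis is therefore also a tissue of other cell composition, and in RNA of whole tissue fewer cells of a type and less RNA per cell cannot be told apart.

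Retinol is taken up from its carrier in blood, oxidised to retinal by retinol dehydrogenases and then to retinoic acid by the retinal dehydrogenases of the Aldh1a family. Retinoic acid is held in the cytoplasm by the Crabp proteins, acts through nuclear receptors, and is hydroxylated by enzymes of the Cyp26 family. In the testis it is known for driving spermatogonia to differentiate and for their entry into meiosis.

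Levels are given on the log2 scale as normalised with RMA, a method that combines the probes of a transcript, so that a step of 1 is a factor of 2 in signal. The array medians lay between 7.11 and 7.15. The labels name 4 batches. Batch 2 held WT replicates 1 to 3 with KO replicate 3, and batch 4 held WT replicate 5 with KO replicates 1, 4 and 5. KO replicate 2 was alone in batch 1 and WT replicate 4 alone in batch 3. In KO replicates 2 and 3 the markers of elongated spermatids were higher than in the other KO arrays, with Prm1 at 9.62 and 9.66 against 6.69 to 8.18. Values without these arrays are therefore given for some of the genes. Crem itself lay between 10.89 and 11.04 in WT and between 9.01 and 9.41 in KO. It fell by 1.71 ± 0.07 (SE) on the log2 scale, with a limma adjusted p of 3.0e-10, and no array went against its label. The labelled tissue showed its own germ cell markers, with the mean level of 6 elongated spermatid genes between 12.80 and 13.05 in WT.

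The enzymes and carriers did not move as 1 group. At an adjusted p under 0.05 in limma, 3 of the 9 genes were higher in KO, 1 was lower and 5 were not called. Of all 19661 genes, 44.3% were called in either direction, 31.1% higher and 13.2% lower. The share of the 9 genes that was called is thus near that of the whole array. The retinol dehydrogenase Rdh10 fell, while the other retinol dehydrogenase Rdh11 and the retinal dehydrogenases Aldh1a1 and Aldh1a2 rose. The median log2 change of the 9 genes was 0.13, against 0.07 over all genes. In 4 of them (Rdh10, Rdh11, Aldh1a2 and Cyp26b1) the values of the genotypes did not overlap, which was so for 32.7% of all genes.

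**Figure D1:**
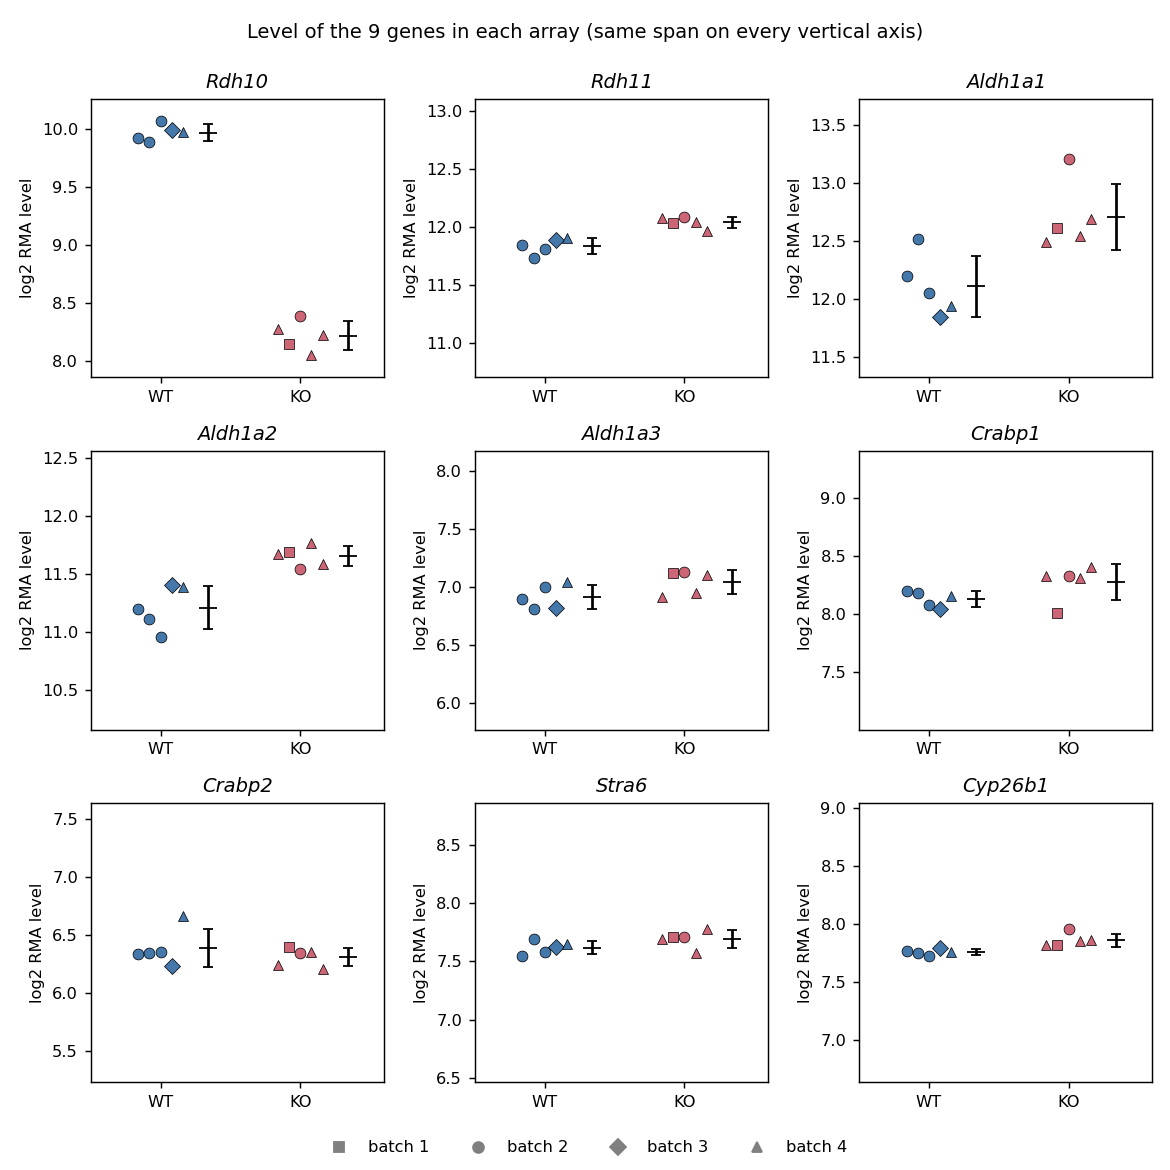
Log2 RMA level of each of the 9 genes (vertical axes, each spanning the same number of log2 units) in the 5 WT and 5 KO arrays (horizontal axis), symbols by batch, and mean ± SD drawn to the right of the points. Rdh10 lies at 8.05 to 8.39 in KO and 9.88 to 10.07 in WT, Aldh1a1 and Aldh1a2 lie higher in KO, and the values of Crabp2 and Stra6 overlap.

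The oxidation of retinol to retinal opens the chain. Rdh10, the membrane-bound retinol dehydrogenase needed for this step in the embryo, stood at 9.92, 9.88, 10.07, 9.99 and 9.97 in WT replicates 1 to 5. In KO replicates 1 to 5 it stood at 8.28, 8.15, 8.39, 8.05 and 8.23. Every KO array lay below every WT array, by more than the whole spread within either genotype. The means were 9.97 ± 0.07 (SD, n = 5) for WT and 8.22 ± 0.13 (SD, n = 5) for KO, a log2 change of −1.75 ± 0.07 (SE, 95% interval −1.90 to −1.60, limma adjusted p = 1.27e-10). This 3.36-fold fall left 29.8% of the WT signal. The change ranked 519 among all falls, and 857 genes fell by at least 1 in log2. Within batch 2 the change was −1.57, within batch 4 it was −1.79, and without KO replicates 2 and 3 it was −1.78.

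Rdh11, a dehydrogenase of the endoplasmic reticulum that interconverts retinal and retinol, stood at 11.85, 11.73, 11.81, 11.89 and 11.90 in WT replicates 1 to 5. The KO values, in the same order, were 12.08, 12.04, 12.08, 12.05 and 11.96. The genotypes did not overlap, but the lowest KO array and the highest WT array were only a small step apart. The log2 change was 0.21 ± 0.06 (SE, 95% interval 0.09 to 0.33, limma adjusted p = 0.00907), a 1.15-fold rise. The call was lost with batch as a block (0.21, limma adjusted p = 0.0567) and within each batch (0.29 in batch 2, 0.13 in batch 4). It was also lost when the arrays were centred on housekeeping genes. That centring shifted the median change of all genes by −0.117 and left Rdh11 at 0.089 (limma adjusted p = 0.347). With the gene B2m left out of the housekeeping genes the shift was −0.018, and Rdh11 kept its call (0.19, limma adjusted p = 0.0306). A feature annotated to both Pwwp3a and Rdh11, which the choice of rows left out, rose from 10.93 ± 0.04 (SD, n = 5) to 11.21 ± 0.10 (SD, n = 5).

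The change of Rdh10 differed from that of Rdh11 within the same arrays. The difference Rdh10 minus Rdh11 averaged −1.87 ± 0.08 in WT and −3.82 ± 0.12 in KO (SD, n = 5 each). It thus moved by −1.95, with no overlap between the genotypes (exact permutation test, two-sided, p = 0.00794, adjusted p = 0.0238 over 3 gene pairs). This p is the smallest that 5 arrays against 5 can give. It was fixed by the values of the single genes, since every KO array lay below every WT array for Rdh10 and above for Rdh11. The test therefore adds nothing to the separate results of these genes. Only the move between genotypes is read here, since levels of different probes are not comparable.

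CREM binds the cAMP response element, so the RefSeq promoter windows (250 bases before to 50 after a start, assembly GRCm38.p6) were searched for it. Windows were found for 6 of the 9 genes, 11 windows in all, and none for Rdh10, Aldh1a3 and Crabp2. The full element TGACGTCA was in none of the 11 windows and in 1.79% of all 32851 windows. Its shortened form TGACG, which any full element also contains, was in 1 of the 11 windows and in 20.8% of all. Both strands were read. The single match lay in 1 of 2 windows of Rdh11, its first base at position −46 from the start, and is shown because no other member window held either form. The capitals mark the matched letters in chr12:79190990-79191019, minus strand.
Rdh11: agtcaccaggagTGACGgtggaccagtaat
The same Rdh11 window also held AGGTCA, the core of the sites that retinoid receptors bind, its first base at position −147. AGGTCA was in 16.3% of all windows and in no window of the other members. Direct repeats of AGGTCA with 5, 2 or 1 bases between them were in none of the 11 windows and in 0.00913%, 0.00913% and 0.0396% of all windows. A match is a match of letters only, and its absence says only that these letters are not in this window.

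The second step, from retinal to retinoic acid, is irreversible and is carried out by Aldh1a1, Aldh1a2 and Aldh1a3. The first 2 of these rose in KO, and their proximal promoters, of 42.7% and 76.0% G and C, are printed to show how unlike in base composition the starts of these related genes are. The lines give the 150 bases before the start, from chr19:20492433-20492582 for Aldh1a1 (1 of its 2 windows) and chr9:71215639-71215788 for Aldh1a2, both on the plus strand, with no letters marked.
Aldh1a1: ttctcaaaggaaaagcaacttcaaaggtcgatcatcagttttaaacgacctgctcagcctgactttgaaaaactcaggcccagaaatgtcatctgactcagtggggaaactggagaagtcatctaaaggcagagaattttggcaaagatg
Aldh1a2: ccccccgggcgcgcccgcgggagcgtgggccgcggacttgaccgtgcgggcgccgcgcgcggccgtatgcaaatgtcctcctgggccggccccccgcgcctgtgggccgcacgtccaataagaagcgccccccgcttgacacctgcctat

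Aldh1a1, a cytosolic retinal dehydrogenase, stood at 12.20, 12.52, 12.05, 11.85 and 11.94 in WT replicates 1 to 5. Its KO values, in the same order, were 12.49, 12.61, 13.20, 12.55 and 12.69. The genotypes overlapped at WT replicate 2, which lay just above KO replicate 1, and KO replicate 3 stood well above the other KO arrays. The means were 12.11 ± 0.26 (SD, n = 5) and 12.71 ± 0.29 (SD, n = 5). The log2 change was 0.60 ± 0.14 (SE, 95% interval 0.29 to 0.91, limma adjusted p = 0.00462), a 1.51-fold rise. It was 0.95 within batch 2, where the only KO array is replicate 3, and 0.63 within batch 4. Blocking on batch gave 0.79, and leaving out KO replicates 2 and 3 gave 0.46. It was called in each. Aldh1a7, a close relative of Aldh1a1 named here after its values were seen, rose from 9.05 ± 0.22 (SD, n = 5) to 9.95 ± 0.27 (SD, n = 5), and near-identical genes can share probe signal.

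Aldh1a2, the retinal dehydrogenase that makes most retinoic acid in the embryo, stood at 11.20, 11.11, 10.96, 11.40 and 11.39 in WT replicates 1 to 5. In KO replicates 1 to 5 it stood at 11.68, 11.69, 11.55, 11.77 and 11.59. All KO arrays lay above all WT arrays. The WT arrays of batch 2 were the 3 lowest, below those of batches 3 and 4. The log2 change was 0.44 ± 0.09 (SE, 95% interval 0.25 to 0.63, limma adjusted p = 0.0011), a 1.36-fold rise. It was 0.37 with batch as a block (limma adjusted p = 0.00913), and it was not called within batch 2 (0.46, limma adjusted p = 0.0556) or within batch 4 (0.29, limma adjusted p = 0.162).

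Aldh1a3, the third retinal dehydrogenase, stood at 6.89, 6.81, 7.00, 6.82 and 7.05 in WT replicates 1 to 5. KO replicates 1 to 5 gave 6.92, 7.12, 7.13, 6.95 and 7.10. The genotypes overlapped, with WT replicate 5 above 2 KO arrays. The log2 change of 0.13 ± 0.07 (SE, 95% interval −0.02 to 0.28, limma adjusted p = 0.163) was not called, and within batch 4 it was −0.06. A change as large as that of Aldh1a2 lies outside this interval, and the rise of Rdh11 lies inside it. The Aldh1a3 signal was low, however, with means of 6.91 in WT and 7.04 in KO, below the lowest array median of 7.11. The difference Aldh1a1 minus Aldh1a2 was 0.90 ± 0.40 in WT and 1.05 ± 0.36 in KO (SD, n = 5 each), so a difference between the rises of these genes was not detected (exact permutation test, two-sided, p = 0.532, adjusted p = 0.532 over 3 pairs), which does not show that they rose alike.

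**Figure D2:**
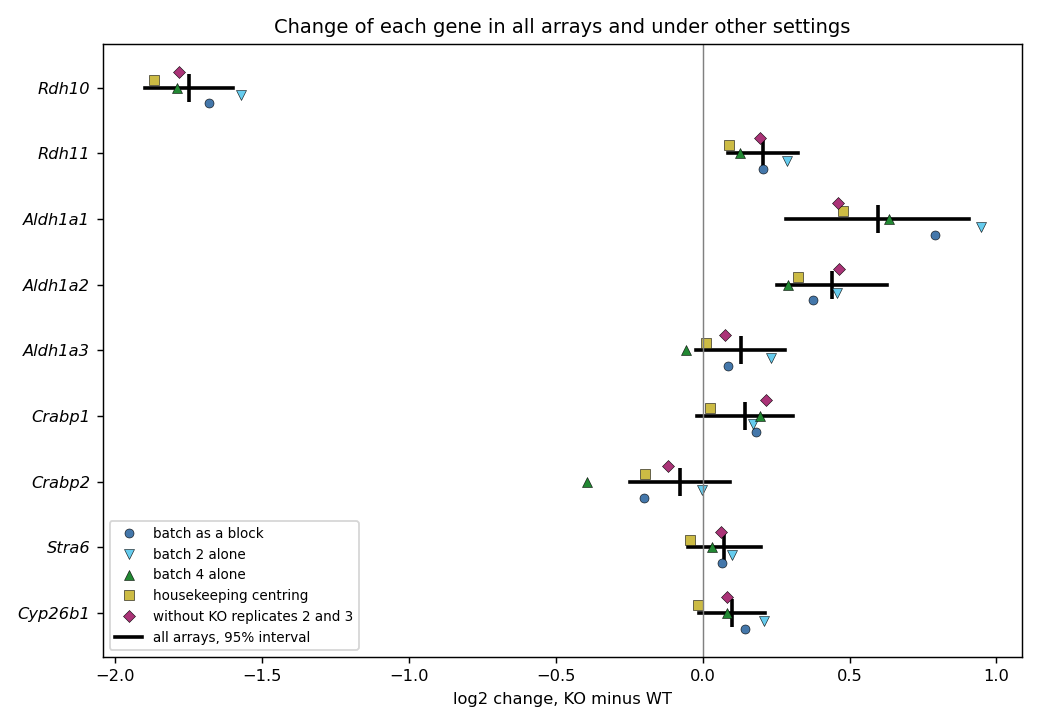
Log2 change, KO minus WT (horizontal axis), of each of the 9 genes (vertical axis). Black bars show the 95% interval over all arrays with the estimate as an upright tick, and symbols show it with batch blocked, within either batch that holds both genotypes, with housekeeping centring, or after KO replicates 2 and 3 were left out. Rdh10 stays between −1.87 and −1.57 in each, and Aldh1a1 between 0.46 and 0.95. Stra6 and Cyp26b1 cross 0 with the housekeeping centring, drawn here with B2m included, and Aldh1a3 does within batch 4.

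Binding proteins were next. Crabp1, which holds retinoic acid in the cytoplasm, stood at 8.20, 8.18, 8.07, 8.04 and 8.15 in WT replicates 1 to 5. KO replicates 1 to 5 gave 8.33, 8.00, 8.32, 8.31 and 8.40. KO replicate 2 lay below every WT array, while the other 4 KO arrays lay above every WT array. The log2 change of 0.14 ± 0.08 (SE, 95% interval −0.02 to 0.31, limma adjusted p = 0.155) was not called. Without KO replicate 2 it was 0.21 (limma adjusted p = 0.0104) and without KO replicates 2 and 3 it was 0.22 (limma adjusted p = 0.0211), so this 1 array decided the call.

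Crabp2, which passes retinoic acid on to its receptor, stood at 6.34, 6.34, 6.35, 6.23 and 6.66 in WT replicates 1 to 5. Its KO values, in the same order, were 6.24, 6.40, 6.34, 6.35 and 6.21. WT replicate 5 was the highest of all arrays, and the other WT arrays lay within the span of the KO arrays. Means of 6.39 in WT and 6.31 in KO put Crabp2 below the lowest array median of 7.11. The log2 change was −0.08 ± 0.08 (SE, 95% interval −0.25 to 0.09, limma adjusted p = 0.48). Within batch 4, where WT replicate 5 is the only WT array, it was −0.39 (limma adjusted p = 0.0705). The difference Crabp1 minus Crabp2 was 1.75 ± 0.15 in WT and 1.97 ± 0.22 in KO (SD, n = 5 each). This move did not pass the test (exact permutation test, two-sided, p = 0.103, adjusted p = 0.155 over 3 pairs). Without KO replicate 2 that move was 0.31 (exact permutation test, adjusted p = 0.0119). Without WT replicate 5, the high Crabp2 array, it was 0.16 (exact permutation test, adjusted p = 0.321).

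At the ends of the chain are uptake and breakdown. Stra6, the membrane receptor that takes retinol from its carrier Rbp4, stood at 7.55, 7.69, 7.58, 7.63 and 7.65 in WT replicates 1 to 5. The KO arrays, from 1 to 5, gave 7.70, 7.71, 7.71, 7.57 and 7.78. Only KO replicate 4 fell among the WT values, and 4 KO arrays lay just above them. The log2 change was 0.07 ± 0.06 (SE, 95% interval −0.05 to 0.20, limma adjusted p = 0.345), so that a change of more than 0.20 in either direction lies outside the interval.

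Cyp26b1, a retinoic acid hydroxylase known for shielding germ cells of the fetal testis from the signal, stood at 7.76, 7.75, 7.72, 7.79 and 7.76 in WT replicates 1 to 5. In KO replicates 1 to 5 it stood at 7.82, 7.82, 7.95, 7.85 and 7.86. The genotypes did not overlap, yet the gap was small, and the log2 change of 0.10 ± 0.05 (SE, 95% interval −0.01 to 0.21, limma adjusted p = 0.142) was not called. With the housekeeping centring the changes of Stra6 and Cyp26b1 were −0.043 and −0.016. Without B2m among the housekeeping genes they were 0.055 and 0.083.

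Beyond these 9 genes, 46 of 49 other retinoid genes in 6 lists were measured. Of these, 8 were higher in KO, 8 were lower and 30 were not called, with a median log2 change of 0.049. Over all genes 31.1% were called higher and 13.2% lower, so the called share of these genes was below the 44.3% of the whole array. Only the share called higher fell short, while the share called lower was somewhat above that of all genes. The counts of the single lists below are to be read against the same shares. Among 17 other enzymes that oxidise retinol or retinal, or reduce retinal back to retinol, 5 rose and 2 fell, with a median of 0.023. Adh1, a cytosolic alcohol dehydrogenase that also acts on retinol, rose by 0.67 ± 0.17 (SE, limma adjusted p = 0.00642). Dhrs4, a retinal reductase, rose by 0.45 ± 0.07, and Adh5, better known for clearing formaldehyde, rose by 0.37 ± 0.08. Aldh8a1, which oxidises the 9-cis form of retinal, fell by 0.49 ± 0.06, and Dhrs9 fell by 0.23 ± 0.08. Their WT means of 6.61 and 5.50 were low, below the lowest array median of 7.11. The other 2 that rose, Rdh13 by 0.17 and Rdh14 by 0.26, are named after their values were seen. Adh1 was at 1.17 within batch 2 and lost its call within batch 4 (0.55, limma adjusted p = 0.0517), as did Dhrs4 (0.36, limma adjusted p = 0.0748). Dhrs9 was not called within batch 2 or batch 4 (−0.21 and −0.26), and it lost its call in 5 of the 10 fits that left out 1 array, without WT replicate 1, 2 or 3 or KO replicate 1 or 5.

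Of 7 genes of retinoid storage and carotenoid cleavage, 2 rose and 1 fell, with a median of 0.20. Lipe, the hormone-sensitive lipase, which also splits retinyl esters, stood at 10.48 ± 0.14 in WT and 7.96 ± 0.17 in KO (SD, n = 5 each). Its log2 change of −2.52 ± 0.09 (SE, limma adjusted p = 4.5e-11), a 5.74-fold fall, exceeded that of Rdh10. Rpe65, the isomerase of the visual cycle, stood low, at 4.75 ± 0.13 in WT and 5.53 ± 0.35 in KO (SD, n = 5 each), a rise of 0.77 ± 0.14 (limma adjusted p = 5.82e-04). Dgat1, which esterifies retinol, rose by 0.20, and is named after its value was seen. Bco2, a carotenoid cleavage enzyme, and Lpl, the lipoprotein lipase, had changes of 0.35 and 0.34 and were not called. Bco2 was called after quantile normalisation once more (0.39), with median centring (0.37), without WT replicate 3 (0.42) and without KO replicate 4 (0.46). Without KO replicates 2 and 3 its change was 0.17 and was not called. Lpl was called without KO replicate 1 (0.46). Within batch 2 the change of Rpe65 was 0.36 and was not called (limma adjusted p = 0.142).

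None of the 8 measured transport genes was called, with a median of 0.065. The 4 of largest change were Rlbp1, a retinal-binding protein (−0.18), Rbp4, the blood carrier of retinol (0.14), its partner Ttr (0.13) and Rbp3 (−0.12). By limma 0 of the 8 had an unadjusted p under 0.05 over all arrays, and Rbp4 was called without KO replicate 2 (0.27, limma adjusted p = 0.0489). Of the other enzymes of breakdown, Cyp26a1 fell by 0.60 ± 0.07 (SE, limma adjusted p = 7.1e-06), from 6.31 ± 0.10 to 5.71 ± 0.09 (SD, n = 5 each). Its mean was thus below the lowest array median of 7.11 in both genotypes. Cyp26c1 had a change of 0.044 and was not called.

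Of 7 receptor genes 3 fell and none rose, with a median of 0.034. Rxra, a retinoid X receptor that pairs with many nuclear receptors, stood at 8.71, 8.65, 8.49, 8.66 and 8.54 in WT replicates 1 to 5, and the KO arrays lay between 7.23 and 7.56. The genotype means were 8.61 ± 0.09 and 7.37 ± 0.15 (SD, n = 5 each), so that Rxra fell by 1.23 ± 0.08 in log2 (limma adjusted p = 1.9e-08). Rarb, a retinoic acid receptor that is itself a known target of retinoic acid, fell by 0.69 ± 0.12, and Rxrg fell by 0.35 ± 0.09. Both stood low, with means of 6.72 in WT and 6.03 in KO for Rarb, and 5.84 and 5.48 for Rxrg. The lowest array median was 7.11. Rara, the retinoic acid receptor best known in Sertoli cells, had a change of 0.16 and was not called. Rarb was at −0.35 within batch 2 and −0.996 within batch 4, and only the second was called, while Rxrg was at −0.57 in batch 2 and lost its call in batch 4 (−0.29).

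Of 5 genes listed for the retinoic acid response of germ cells, 1 rose and 1 fell. Kit, a receptor of differentiating spermatogonia, rose by 0.47 ± 0.09 (SE, limma adjusted p = 7.8e-04), and Rec8, a cohesin subunit of meiosis, fell by 0.57 ± 0.06 (limma adjusted p = 7.6e-06). Neither batch called Kit alone (0.46 and 0.62), and Rec8 lost its call in batch 4 (−0.40). Stra8, the gatekeeper of meiotic entry, was at 6.61 ± 0.09 in WT and 6.61 ± 0.23 in KO (SD, n = 5 each). The 95% interval of its change ran from −0.21 to 0.21, and both means lay below the lowest array median of 7.11. Dmrt1, a transcription factor of Sertoli and germ cells, had a change of 0.18 and was not called. With batch as a block it was 0.40 (limma adjusted p = 0.0114).

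**Figure D3:**
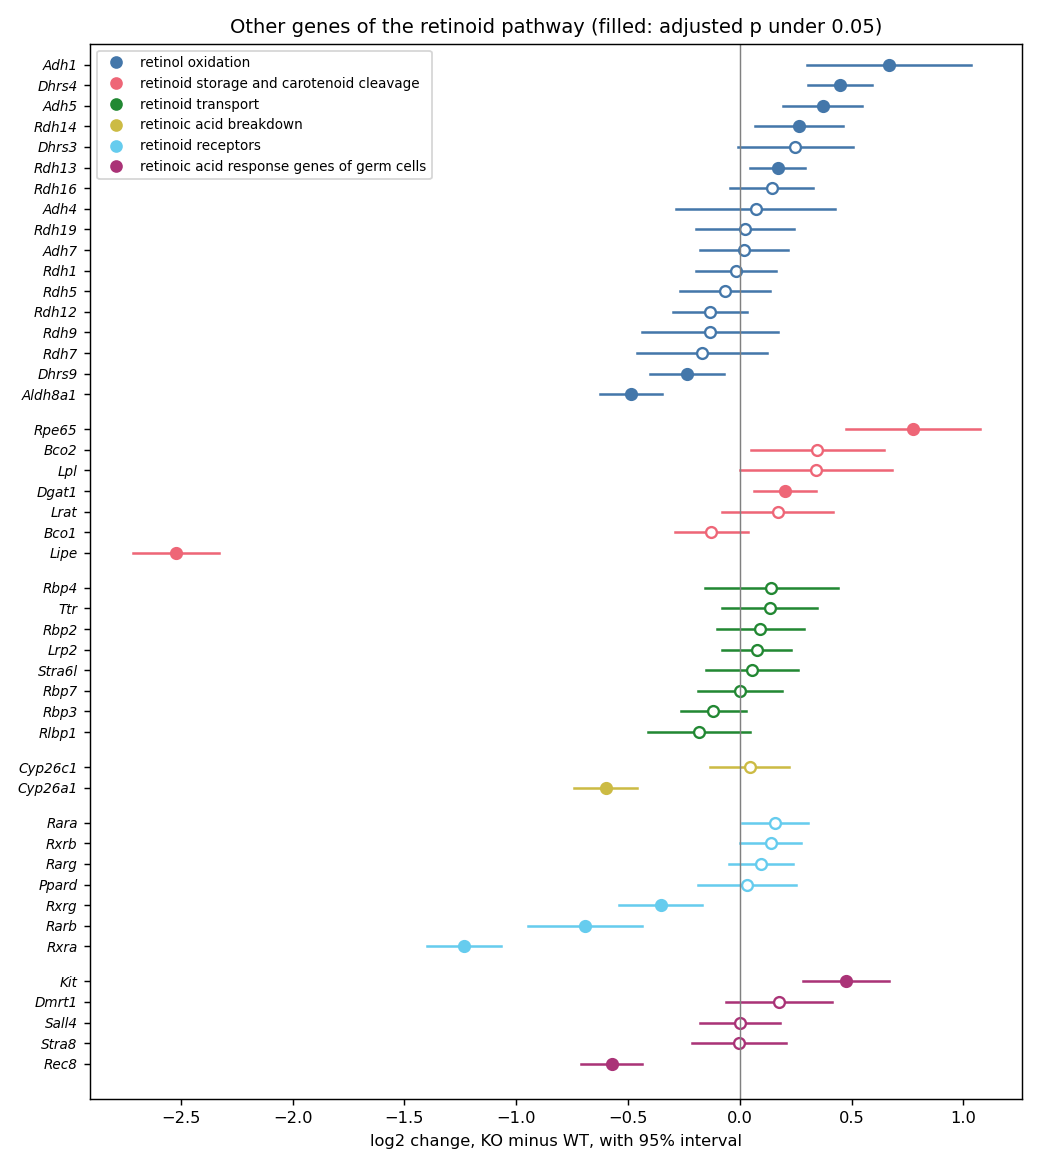
Log2 change, KO minus WT, with its 95% interval (horizontal axis) for the 46 other retinoid genes measured (vertical axis), grouped and coloured by list, with filled points for genes called by limma at an adjusted p under 0.05. Lipe at −2.52 and Rxra at −1.23 lie farthest below 0, and Rpe65 at 0.77 and Adh1 at 0.67 farthest above it.

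Markers of several cell types were called as well, against a background of 31.1% of all genes higher and 13.2% lower. Of 11 Sertoli cell genes 3 rose and none fell, with a median of 0.13, a share below that background. Of 6 Leydig cell genes 5 rose, and their mean level ran from 9.86 to 10.04 in WT and from 10.23 to 10.91 in KO. All 7 macrophage genes rose, with a mean level of 7.36 to 7.45 in WT and 7.85 to 8.39 in KO. Among markers of largest change in these lists were Fshr (0.35), Hsd17b3 (1.08) and Adgre1 (1.52). Of 5 endothelial genes 3 rose, led by Tek (2.05), and of 5 peritubular myoid genes 1 rose, also below the background, while Acta2, the one of largest change, was at 0.23 and not called. The lowest WT mean among the markers of these somatic lists was 6.12, in the macrophage gene Cd163.

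Among germ cells, 6 of 8 spermatocyte genes rose, with Spo11 at 0.38 and a median of 0.25. Of 8 spermatogonial genes 2 rose and 1 fell, with Kit showing the largest change. Kit, Stra8, Dmrt1 and Sall4 are also among the retinoic acid response genes above, so these lists are not separate. Of 8 round spermatid genes 6 fell and 1 rose, with a median of −1.17 and Catsper3 at −5.44. All 6 elongated spermatid genes fell, with a median of −5.05 and Prm1 at −5.52, and their mean level ran from 7.00 to 9.32 in KO. Rdh10 fell, as most of the spermatid genes did, and Rdh11, Aldh1a1 and Aldh1a2 rose, as most of the Leydig, macrophage and spermatocyte genes did. The part of cell composition in these changes was not tested. Of attached tissue, 1 of 6 epididymal genes (Rnase10, −0.42) and 1 of 4 fat genes (Adipoq, −0.24) fell, as did Alas2 (−0.68), the only one of 4 blood genes measured.

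**Figure D4:**
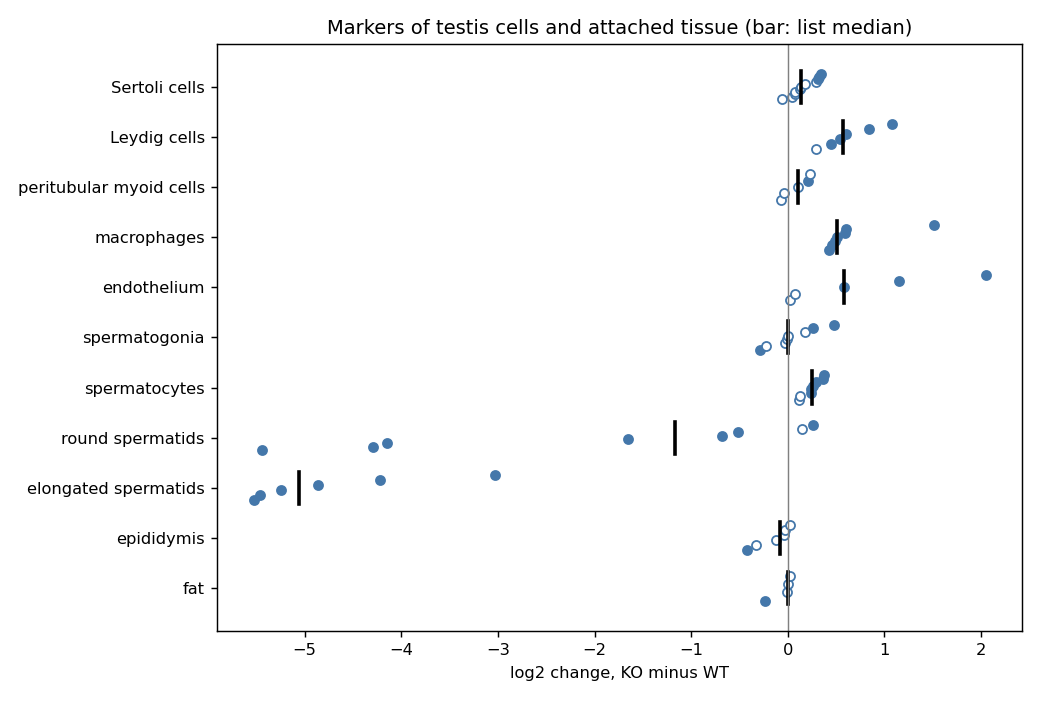
Log2 change, KO minus WT (horizontal axis), of marker genes of 11 cell types or tissues (vertical axis), 1 point a gene, filled where called by limma at an adjusted p under 0.05, with an upright bar at the median of each list. The elongated spermatid genes lie between −5.52 and −3.03, and the 7 macrophage genes all lie above 0.

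Within a genotype the 9 genes varied in different ways from mouse to mouse. Over the 10 arrays, with each genotype's mean removed, Pearson's r between pairs of the 9 ran from −0.57 (Aldh1a1 with Aldh1a2) to 0.58 (Aldh1a3 with Crabp2). The genes whose variation was most like that of Aldh1a1 were Glul (r = 0.94), C2 (r = 0.91) and Gpx3 (r = 0.91). Of these, C2 had a log2 change of 0.40, while Glul and Gpx3 had changes of 0.027 and 0.061 and were not called. The genes most like Rdh10 were Haus7 (r = 0.93), Tns4 (r = 0.91) and Mmut (r = 0.90), with changes of −0.38, −0.012 and 0.90. These values describe 10 arrays that share batches, and they were picked as the highest among all genes. With the mean level of the macrophage list r was 0.80 for Cyp26b1, 0.69 for Aldh1a1, 0.67 for Rdh10, −0.02 for Rdh11 and −0.36 for Aldh1a2. With the Leydig list it was 0.74, 0.65, 0.60, −0.03 and −0.32 in the same order. For Crabp1, Stra6, Aldh1a3 and Crabp2 it was 0.56, 0.41, 0.24 and −0.18 with the macrophage list. With the Leydig list these were at 0.67, 0.31, −0.07 and −0.31. Other lists gave values of like size, as 0.79 for Cyp26b1 with spermatogonia, and 0.59 for Rdh10 and 0.56 for Aldh1a1 with peritubular myoid cells. The macrophage and Leydig lists are thus not singled out. With epididymis r was 0.63 for Aldh1a1 and −0.79 for Rdh11. In that list Adam7 stood at 6.66 in WT replicate 2, against 4.65 to 4.94 in the other WT arrays. WT replicate 2 was also the highest WT array for Aldh1a1 and the lowest for Rdh11, and r without it was not computed. With the round spermatid list r was 0.02 for Rdh10, and with the elongated spermatid list 0.39. KO replicate 3 was the highest KO array for Cyp26b1, Aldh1a1 and Rdh10. It was also the highest for most macrophage and Leydig genes, as for C1qa (8.64) and Cyp11a1 (11.85). The values of r without this array were not computed.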

How the data were processed

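Total RNA of whole testis from 5 WT and 5 KO mice was hybridised to 1 array per mouse. RMA normalisation was run by the authors in XPS over core probe sets and control probes, with antigenomic probes as background and 1 value per transcript, and the deposited values are log2 levels. Package version and genome build are not given in the sources used here. Of 35557 rows, 9868 were empty and 25689 were used, of which 20777 had a single symbol, 232 several and 4680 none. Symbols were updated through RefSeq (GRCm38.p6, 20696 matched). Precision is limited by the number of arrays, and a log2 change had a median SE of 0.0755.

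KO was compared with WT with limma 3.58.1 in R 4.3.3 (lmFit, eBayes, two-sided, no covariate), with Benjamini-Hochberg adjustment over all features and calls at an adjusted p under 0.05. The fit was tested on simulated data. Genes named were the 9 members, Crem, in each retinoid list the 4 genes of largest change and any called against the sign of its median, in each marker list the gene of largest change, and the 3 genes most like Aldh1a1 and Rdh10. Members and lists were chosen with earlier results of these data known. The lists named 49 other retinoid genes, of which 46 had a value and entered the counts. Alternatives were quantile normalisation once more, centring on the median or on 8 measured housekeeping genes with and without B2m, batch as a fixed or random block, single batches, array weights, trend and robust eBayes, removal of the lowest 25% of features, averaging of a gene's features, and leaving out arrays. Batch 2 has 1 KO array and batch 4 has 1 WT array, so within these a lone array is assumed to vary like the others. Replicates were numbered in order of deposition and pair no samples.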

Additional observations from a re-analysis of the deposited data

Results flagged for a closer look

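In 66 groups of 5 arrays (33 genes in 2 genotypes), the gap of the highest or lowest array to its neighbour was divided by the range of the group, and 5 groups exceeded 0.71. Chance gives about 1 in 20 groups. In Aldh1a1, KO replicate 3 at 13.20 stood above the next KO array at 12.69, with a ratio of 0.719. In Crabp1, KO replicate 2 at 8.00 stood below the next at 8.31, with a ratio of 0.772. In Crabp2, WT replicate 5 at 6.66 stood above the next at 6.35, with a ratio of 0.724. In Rpe65, WT replicate 3 at 4.53 stood below the next at 4.79, with a ratio of 0.809. In Cyp26a1, WT replicate 4 at 6.48 stood above the next at 6.30, with a ratio of 0.777.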

How the results depend on the processing

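Rdh10 and Aldh1a1 kept their direction and their call under all 23 alternatives, and Aldh1a2 under all but the single batches. Of the 9 genes 3 were higher over all arrays, 1 within batch 2 and 1 within batch 4, and 3 to 4 with 1 array left out. The count of higher genes was 2 with batch as a fixed block and 2 with the housekeeping centring. The count of lower genes was 1 throughout. The median change of the 9 genes, 0.13 over all arrays, was 0.013 with the housekeeping centring and 0.11 with that centring without B2m. It was 0.21 within batch 2, and 0.10 to 0.15 with 1 array left out. Over the other retinoid genes 8 were higher, against 5 with the housekeeping centring, 4 within batch 2 and 3 within batch 4, and 6 to 10 with 1 array left out. The 8 lower genes became 5 within batch 4, and 7 to 9 with 1 array left out. With batch as a fixed block 6 of the other retinoid genes were higher and 8 lower, and the housekeeping centring without B2m also gave 6 and 8. With B2m included, that centring gave 10 lower genes. The move of Crabp1 minus Crabp2, 0.22 over all arrays, was 0.59 within batch 4 and 0.16 to 0.31 with 1 array left out. Some uncalled changes near 0 turned sign. With the housekeeping centring they were −0.043 for Stra6, −0.016 for Cyp26b1 and −0.073 for Cyp26c1. Without B2m that centring gave 0.055, 0.083 and 0.026 in the same order. Cyp26c1 was also at −0.0037 with batch as a block, −0.092 within batch 4 and −0.0058 without KO replicates 2 and 3. Within batch 4 Aldh1a3 was at −0.057 and Rbp3 at 0.022. Stra8, at −0.0037 over all arrays, was at 0.033 after quantile normalisation, 0.016 with median centring, 0.15 with batch as a block, 0.30 within batch 2, 0.015 with array weights and 0.0047 without KO replicates 2 and 3, and ran from −0.076 to 0.075 with 1 array left out. The cause of these moves was not tested. The housekeeping centring turned the share of higher genes among all called genes from 70.1% to 42.7%, and without B2m it was 67.5%. No paired analysis was possible because the replicate numbers follow the order of deposition.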
